A study of Mus musculus with 13 samples.

Results

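Liver-resident NK cells (LrNK) from mice labelled CD8KO were compared with LrNK from wild-type mice across all genes. The comparison takes every LrNK count library, which are 7 of the 13 samples of the series: 4 wild type and 3 labelled CD8KO. Wild-type libraries 2 and 4 agreed almost to counting error (a chi-square divided by its degrees of freedom of 3.04), as did CD8KO libraries 2 and 3 (2.67), while every other pair within a label gave 196 to 283. Each of these pairs was summed and counted as 1 sample, which left 5 samples, n = 3 for wild type and n = 2 for CD8KO. Both groups were C57BL/6J mice of 8 to 10 weeks, and both cell samples are described as liver lymphocytes from which NK cells were sorted on a flow sorter before RNA extraction and library construction. The labels do not say which CD8 gene or allele was targeted, which surface markers the sort used, the sex of the mice, or whether samples came from separate animals, so each p-value measures only the spread between these samples. The remaining 6 libraries are conventional NK cells labelled as splenocytes, 3 of each genotype, and entered only 1 alternative fit.

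NK cells are innate lymphocytes that kill by releasing perforin and granzymes from cytotoxic granules and by displaying death ligands. Germline-encoded receptors control them: activating receptors that signal through adaptor chains, and inhibitory receptors of the Ly49 and CD94-NKG2 families that read class I MHC. In mouse liver a resident population, marked by the collagen-binding integrin CD49a (Itga1), the chemokine receptor CXCR6 and the death ligand TRAIL (Tnfsf10), lives beside circulating NK cells that carry CD49b (Itga2) and depend on Eomes. CD27 is a receptor of the TNF receptor family on NK and T cells whose only known ligand is CD70, and the series title places it between CD8+ T cells and the maturation of LrNK.

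LrNK libraries held 30578631 to 47655853 counts. By detected genes they formed a few-gene set (13917 to 15797 in wild-type libraries 1 and 3 and CD8KO library 1) and a many-gene set (19896 to 22921 in the summed libraries), with no library between. Even numbers made up 49.5 to 55.8% of counts from 1 to 20 in the few-gene libraries and 60.6 to 65.2% in the many-gene libraries. The set crosses the label, so the label can be read within each set on libraries that the other set does not share: wild-type samples 1 and 3 against CD8KO sample 1 among few-gene samples, and wild-type sample 2+4 against CD8KO sample 2+3 among many-gene samples. Values below are CPM, a gene's count scaled by the sample's total count, always in the order wild type 1, 3 and 2+4, then CD8KO 1 and 2+3.

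Cd8a (ENSMUSG00000053977, chromosome 6, 71373427 to 71379173, GRCm38), the CD8 alpha chain gene and the one nearest to the label, was at 20.5, 18.5, 20.5 and 22.4 CPM in wild-type libraries 1 to 4 and 41.6, 42.6 and 45.1 CPM in CD8KO libraries 1 to 3. Every library labelled CD8KO thus held more Cd8a than every wild-type library (1.08 ± 0.25 on the log2 scale, edgeR adjusted p = 1), which goes against the label. Cd8b1, the beta chain gene, had 0 counts in all 4 wild-type libraries and in CD8KO library 1, and 27 and 22 counts in CD8KO libraries 2 and 3. A count for a whole gene does not tell which of its exons were read. The genotype is therefore written as a label throughout, and the direction of every difference rests on it.

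Sex-linked RNA also moved with the label. Xist, the RNA that silences an X chromosome in females, was at 0.282, 0.512, 1.90 and 0.981 CPM in wild-type libraries 1 to 4 and 94.9, 136 and 132 CPM in CD8KO libraries 1 to 3. Ddx3y, a Y-linked RNA helicase gene, was at 92.04, 105, 129 and 106 CPM in wild-type libraries 1 to 4 and 67.1, 77.7 and 69.2 CPM in CD8KO libraries 1 to 3. Wild-type libraries held Y-linked RNA with almost no Xist, whereas the libraries labelled CD8KO held both, with Ddx3y, Kdm5d (−0.96) and Eif2s3y (−0.58) lower in every one. A difference by label and a difference by the sex of the mice cannot be told apart in these samples.

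**Figure D1:**
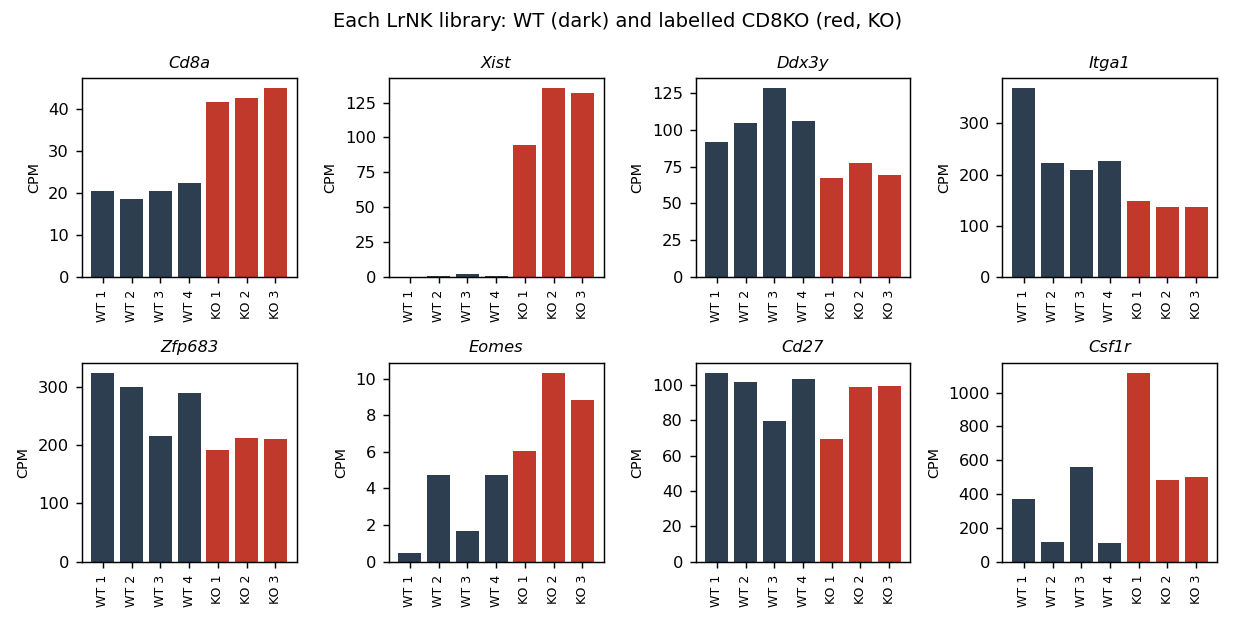
CPM of 8 genes in each LrNK library, wild type dark and labelled CD8KO red, on linear axes that start at 0. Cd8a and Xist were higher, and Itga1, Zfp683 and Ddx3y lower, in all 3 libraries labelled CD8KO than in all 4 wild-type libraries, while Cd27 and Csf1r overlapped.

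In 3 fits of the 5 LrNK samples no gene passed, whereas other settings made calls, on the same samples or with the conventional NK libraries added. The edgeR quasi-likelihood test called 0 of 16504 genes (0%) at a Benjamini-Hochberg adjusted p under 0.05, with a smallest adjusted p of 0.230, and 431 genes were higher (2.61%) and 184 lower (1.11%) at an unadjusted p under 0.05. With the detected-gene set as a term edgeR again called 0 (smallest adjusted p 0.0632), with 721 genes higher (4.37%) and 317 lower (1.92%) at an unadjusted p under 0.05, and limma voom with sample weights called 0 (smallest adjusted p 0.100, 954 at an unadjusted p under 0.05, 5.78%). DESeq2 on the same samples called 62, the edgeR fit without the filter on low counts called 259, and edgeR with the conventional NK libraries in a 4-group fit called 138 of 19287 (0.716%; 0.539% higher and 0.176% lower). In the 4-group fit the genes described below with the smallest edgeR adjusted p were Klra9 (3.7e-05), Bach1 (0.000289) and then Klri2, Klra5, Thbs1 and Cd3g (0.00146 each), Gzma (0.00290) and Styk1 (0.00316), and Gzmb passed as well (0.0198). That fit takes part of its spread from conventional NK cells. In what follows, passing refers to the 3 fits of LrNK alone. The biological coefficient of variation was 98.2% in the LrNK fit, 82.9% with the set term and 63.2% when shared over the 4 groups. The count with the set term was 225 without wild-type sample 3, 48 without CD8KO sample 2+3, 13 without CD8KO sample 1, 2 without wild-type sample 2+4 and 0 without wild-type sample 1.

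Fewer genes were far lower under the label within both sets than were far higher, and the lower ones included 2 granzyme genes and several NK receptor genes. Of all 16504 genes, 1142 were at least 2-fold higher within both sets (6.92%) and 294 at least 2-fold lower (1.78%). Among the 5752 genes whose log2 CPM averaged 5 or more, 158 were at least 2-fold higher (2.75%) and 15 at least 2-fold lower (0.261%), and among the 1723 that averaged 7 or more, 31 (1.8%) and 11 (0.638%). Among the 5752, only 1 gene, the globin gene Hbb-bs, was past 2-fold in opposite directions. Of the 15 lower genes, 11 had samples that did not overlap between labels (18.3% of all 16504 genes did not), which the choice by fold favours. They were Gzma, Gzmb, Klra9, Klra5, Klri2, Cd3g, Styk1, Cited4, Kcnj8, Hspa1a and Hspa1b. Of these 11, Klra9, Klra5, Klri2, Styk1 and Kcnj8 lie on chromosome 6, as Cd8a does, and the others on other chromosomes. Klri2, Klra5, Klra9 and Styk1 are neighbours from 129729041 to 131353597, so they are not separate draws from all genes. Cd8a ends at 71379173, and Kcnj8 starts at 142564837. The share of all tested genes on chromosome 6 was not counted. Whether position had a part was not tested. Of the 158 higher genes, 86 did not overlap. They included 7 matrix genes, 4 interferon-stimulated genes and 4 neutrophil and monocyte genes, and 52 were in none of the 44 gene lists examined.

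Direction was shared between the sets more often for abundant genes. The same direction within both sets was found for 58.4% of all 16504 genes, 68.3% of genes that averaged 5 or more (33.6% higher and 34.7% lower) and 72.4% of those at 7 or more (33.6% and 38.8%). Across the 5752 genes the within-set differences had a Pearson correlation of 0.658 and a Spearman correlation of 0.549, and across all genes 0.244 and 0.285. Genes are not independent replicates, and these values describe the 5 samples only.

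**Figure D2:**
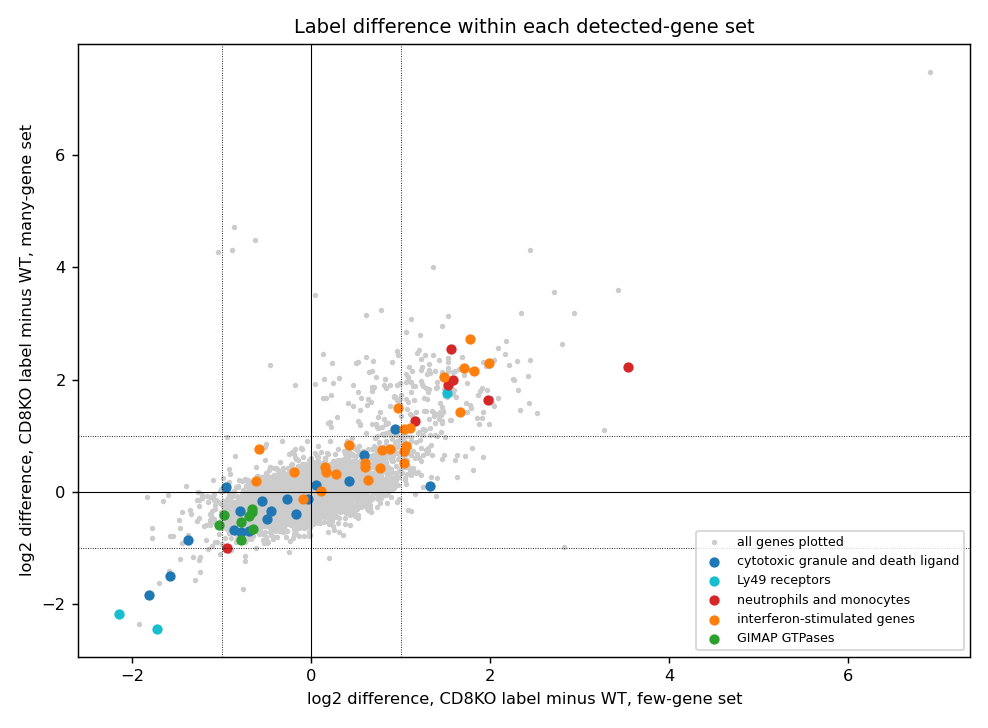
Log2 CPM difference, CD8KO label minus wild type, among few-gene samples (horizontal axis) and among many-gene samples (vertical axis); each point is a gene whose log2 CPM averaged 5 or more and dotted lines mark 2-fold. Granzymes and 2 Ly49 genes lie in the lower left corner, interferon-stimulated and monocyte genes mostly in the upper right, and Xist at the far upper right.

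Granzyme genes were lower under the label. Gzma (ENSMUSG00000023132, chromosome 13, 113093825 to 113100981), which encodes granzyme A, a granule protease, was at 3294, 3043 and 3792 CPM in wild type and 909 and 1074 CPM in the samples labelled CD8KO. The labels did not overlap, and every wild-type value was far above both values under the label. The log2 change was −1.75 ± 0.28 (edgeR adjusted p = 0.796) and −1.82 ± 0.17 with the set term (edgeR adjusted p = 0.0641), with −1.81 among few-gene and −1.84 among many-gene samples. Gzmb, which encodes granzyme B, a caspase-cleaving protease, was at 2861, 2793 and 3601 CPM in wild type and 955 and 1288 CPM in the samples labelled CD8KO. It was lower by −1.57 and −1.50 (log2) within the sets, again without overlap (edgeR adjusted p = 1). Gzmc, a further granule protease, was at 226, 229 and 242 CPM in wild type and 87.997 and 134 CPM in the samples labelled CD8KO and did not overlap either (−1.04 ± 0.29, edgeR adjusted p = 1).

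The 150 bases before the start of Gzma (chr13:113100982-113101131, minus strand) and of Gzmb (chr14:56262335-56262484, minus strand) are shown as abundant members of the lower genes. They come from RefSeq on GRCm38.p6. Capitals mark the RUNX core TGTGGT, searched on both strands, which on the opposite strand reads ACCACA.
Gzma: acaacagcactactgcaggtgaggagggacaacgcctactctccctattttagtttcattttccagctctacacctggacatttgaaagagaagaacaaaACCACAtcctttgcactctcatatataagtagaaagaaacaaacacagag
Gzmb: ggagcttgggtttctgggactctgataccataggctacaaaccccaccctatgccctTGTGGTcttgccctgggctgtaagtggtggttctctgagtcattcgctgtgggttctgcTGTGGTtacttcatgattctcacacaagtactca
The match lies 50 bases before the start in Gzma, and 93 and 34 bases before it in Gzmb. In windows from 250 bases before to 50 after the start, this core was present in 14 of 26 windows of cytotoxic granule and death ligand genes (53.8%), in 5506 of 32851 windows of all genes (16.8%) and in 11 of 39 windows of interferon-stimulated genes (28.2%). A match describes letters in a window and does not show that a factor binds there.

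Other killing genes were lower by less. Perforin (Prf1), which forms the pore through which granzymes enter a target, was at 396, 276 and 337 CPM in wild type and 205 and 209.7 CPM in the samples labelled CD8KO (−0.68 ± 0.25, edgeR adjusted p = 1). Its samples did not overlap and both within-set differences were −0.70. TRAIL (Tnfsf10), a death ligand and a marker of LrNK, was at 420.1, 264 and 251 CPM in wild type and 244 and 201 CPM in the samples labelled CD8KO, a smaller difference (−0.47 ± 0.27, edgeR adjusted p = 1) set mainly by wild-type sample 1. Of 25 cytotoxic granule and death ligand genes 21 had enough counts to be tested. None passed, 14 were lower and 5 higher within both sets (all genes 28% and 30.4%), and 10 did not overlap as lower and 1 as higher (all genes 8.47% and 9.84%). The median log2 change was −0.38, beside 0.02 for all genes. Without CD8KO sample 1 it was −0.01. Summed over the list the level was 12025, 11755 and 13814 CPM in wild type and 6462 and 7420 CPM in the samples labelled CD8KO, so the sums did not overlap.

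**Figure D3:**
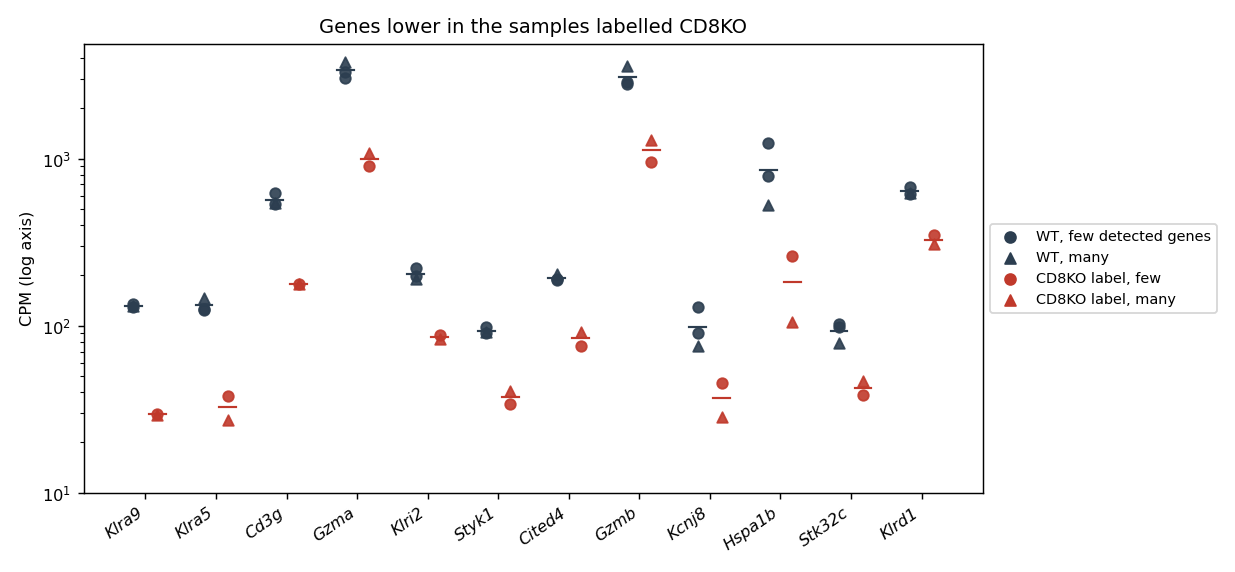
CPM on a log axis of the 12 genes with the smallest p among protein-coding genes lower under the label, whose log2 CPM averaged 5 or more, with no overlap and the same direction within both sets. Dark symbols are wild type and red symbols labelled CD8KO, circles few-gene and triangles many-gene samples, and bars group means. Klra9 lay at 129 to 135 CPM in wild type and 29.4 to 29.8 CPM under the label.

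Among receptors, 2 Ly49 genes stood lowest. Klra9 (ENSMUSG00000033024, chromosome 6, 130178675 to 130193112), which encodes the receptor Ly49I, was at 135, 129 and 132 CPM in wild type and 29.8 and 29.4 CPM in the samples labelled CD8KO. The spread within each label was small beside the gap between them, and the log2 change was −2.14 ± 0.22 (edgeR adjusted p = 0.230), with −2.15 and −2.18 within the sets. Klra5 (ENSMUSG00000030173, chromosome 6, 129898996 to 129917650), which encodes Ly49E, was at 125, 124 and 147 CPM in wild type and 38.04 and 27.4 CPM in the samples labelled CD8KO, a log2 change of −2.02 ± 0.26 (edgeR adjusted p = 0.404). Over the 5 samples the labels did not overlap for either gene.

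The 120 bases before the start of Klra9 are printed beside the Klra5 bases that align to them (chr6:130193113-130193232 and chr6:129913277-129913396, both minus strand, RefSeq, GRCm38.p6). The genes are close copies, and counts may be shared between them. The RefSeq start of Klra5 used here lies inside the longer GENCODE interval given above. Capitals mark the 108 bases that are the same in both.
Klra9: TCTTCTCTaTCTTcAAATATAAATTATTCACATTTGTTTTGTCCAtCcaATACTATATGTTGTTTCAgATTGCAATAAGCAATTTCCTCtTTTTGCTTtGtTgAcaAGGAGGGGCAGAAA
Klra5: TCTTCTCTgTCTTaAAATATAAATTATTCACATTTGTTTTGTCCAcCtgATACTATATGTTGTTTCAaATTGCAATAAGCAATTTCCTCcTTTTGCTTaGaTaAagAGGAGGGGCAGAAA
Over 246 aligned bases around the start the 2 genes were 89.0% identical. These windows lie mostly before the start, so their identity does not show how alike the transcripts are. How far counts are shared between Klra genes was not tested, and values of single Klra genes are uncertain.

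The family did not move as 1 block. Klra3 (Ly49C) was at 12.03, 18.5 and 14.95 CPM in wild type and 6.99 and 7.02 CPM under the label without overlap (−1.10 ± 0.43, edgeR adjusted p = 1), whereas Klra2, which encodes Ly49B, an inhibitory receptor of myeloid cells, was at 29.5, 58.2 and 9.05 CPM in wild type and 119 and 31.2 CPM under the label and overlapped. Within the sets Klra2 was higher under the label by 1.51 and 1.77. Of 12 Ly49 genes tested 7 were lower and 4 higher within both sets, with a median log2 change of −0.41.

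Receptors of the CD94 and KLRE1 groups were lower as well. Klrd1, which encodes CD94, the shared chain of the NKG2 receptors, was at 617, 671 and 622 CPM in wild type and 347 and 306 CPM in the samples labelled CD8KO (−0.95 ± 0.22, edgeR adjusted p = 1). Its partners Klrc1 (NKG2A, inhibitory) and Klrc2 (NKG2C, activating), themselves close copies, were lower by −0.73 and −0.77 on the log2 scale, and all 3 did not overlap. Klri2, which pairs with KLRE1, was at 221, 198 and 191 CPM in wild type and 88.2 and 83.5 CPM in the samples labelled CD8KO (−1.23 ± 0.21, edgeR adjusted p = 0.834). The partner gene Klre1 was at 459, 509 and 555 CPM in wild type and 272 and 303 CPM in the samples labelled CD8KO and the second partner Klri1 at 30.95, 14.98 and 17.7 CPM in wild type and 9.19 and 7.50 CPM under the label. No sample overlapped for these 3 genes.

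Activating and costimulatory receptors lay mostly below wild type by small amounts. Of 22 genes tested 17 were lower and 5 higher within both sets, 12 did not overlap as lower and 1 as higher (all genes 8.47% and 9.84%), and the median log2 change was −0.42. None passed. Cd7, a costimulatory receptor, was at 1439, 1461 and 1622 CPM in wild type and 749 and 926 CPM in the samples labelled CD8KO. NK1.1 (Klrb1c) was at 617, 443 and 592 CPM in wild type and 308 and 384 CPM in the samples labelled CD8KO and NKp46 (Ncr1), an activating receptor that marks NK cells, at 852, 583 and 586 CPM in wild type and 533 and 427 CPM under the label. For Ncr1 the difference (−0.47 ± 0.25, edgeR adjusted p = 1) was smaller than the distance between wild-type samples 1 and 3. In bulk RNA fewer cells of a type and less RNA per cell cannot be told apart.

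Signalling chains diverged from each other. Cd3g, which encodes the CD3 gamma chain and is also transcribed in NK cells, was at 538, 620.5 and 542 CPM in wild type and 179 and 178 CPM in the samples labelled CD8KO. The 2 values under the label were nearly equal and far below wild type (−1.65 ± 0.23, edgeR adjusted p = 0.439), and the set term left it at −1.67 ± 0.18 (edgeR adjusted p = 0.0808). Cd247, the zeta chain through which NK receptors signal, was at 66.2, 100 and 67.5 CPM in wild type and 42.6 and 46.6 CPM under the label and did not overlap (−0.78 ± 0.27). Tyrobp, which encodes the adaptor DAP12, was at 916, 999 and 1083 CPM in wild type and 764 and 690.2 CPM under the label (−0.45 ± 0.24). Syk, the kinase recruited by these adaptors and also abundant in myeloid and B cells, was the opposite, at 286, 239 and 219 CPM in wild type and 427 and 378 CPM under the label (0.72 ± 0.21, edgeR adjusted p = 1).

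Other lower genes had varied roles. Styk1, which encodes a receptor-like kinase, was at 89.9, 98.5 and 92.2 CPM in wild type and 34.2 and 40.8 CPM in the samples labelled CD8KO (−1.30 ± 0.24). Cited4, a transcriptional coactivator gene, was at 189.6, 187 and 203 CPM in wild type and 75.4 and 92.2 CPM under the label (−1.19 ± 0.24), and Kcnj8, a potassium channel subunit gene, at 129, 89.9 and 75.1 CPM in wild type and 45.6 and 28.2 CPM under the label (−1.40 ± 0.30). None of the 3 overlapped, and their edgeR adjusted p ran from 0.950 to 1. Htra3, a secreted serine protease gene, was at 39.1, 68.8 and 39.2 CPM in wild type and 6.85 and 6.14 CPM in the samples labelled CD8KO, which gave the most negative log2 change of the genes chosen for naming (−2.90 ± 0.37, edgeR adjusted p = 0.404).

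GIMAP genes, which encode GTPases that support lymphocyte survival, were lower together. All 8 were lower within both sets and in all 8 the samples did not overlap (all genes 28% and 8.47%), with a median log2 change of −0.65, and none passed. Gimap1, Gimap4, Gimap7 and Gimap9 lie between 48676129 and 48743795 on chromosome 6, the chromosome of Cd8a. They are neighbours, so the members are not separate draws from all genes. Gimap7 was at 303, 248 and 215 CPM in wild type and 159.98 and 119.95 CPM in the samples labelled CD8KO (−0.85 ± 0.23, edgeR adjusted p = 1) and Gimap4, the most abundant of those named, at 1561, 1165 and 1220 CPM in wild type and 861 and 783 CPM under the label (−0.66 ± 0.23). The median stayed between −0.63 and −0.68 under the 3 other scalings.

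The HSP70 genes were lower but variable within wild type. Hspa1b, which encodes the inducible chaperone HSP70, was at 1242, 782 and 527 CPM in wild type and 262 and 105 CPM in the samples labelled CD8KO (−2.21 ± 0.48, edgeR adjusted p = 1). Hspa1a, whose promoter window is 98.7% identical to that of Hspa1b and whose counts may be shared with it, was at 225, 290.5 and 135 CPM in wild type and 104 and 46.1 CPM under the label. The co-chaperone Dnajb1 was lower by −0.65 ± 0.23. Each of the 3 did not overlap. They belong to a list of 36 immediate-early and stress genes, of which 19 were lower and 10 higher within both sets. Its median log2 change was −0.01, and ran from −0.65 to 0.42 when each sample was left out.

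Genes that were higher included the thrombospondin gene Thbs1 and several genes of the matrix and the cell surface. Thbs1 (ENSMUSG00000040152, chromosome 2, 118111876 to 118127133), which encodes thrombospondin 1, a secreted matrix protein that can activate TGF-beta, was at 5.38, 9.63 and 8.41 CPM in wild type and 78.1 and 103 CPM in the samples labelled CD8KO. Both values under the label were far above every wild-type value (3.55 ± 0.36, edgeR adjusted p = 0.230), and the set term left 3.47 ± 0.32 (edgeR adjusted p = 0.0632). Lrp1 (ENSMUSG00000040249, chromosome 10, 127538161 to 127621148), a scavenger receptor gene of macrophages and hepatocytes, was at 199, 182 and 92.1 CPM in wild type and 882 and 448 CPM in the samples labelled CD8KO (2.09 ± 0.38, edgeR adjusted p = 0.950). Its within-set differences were nearly equal, 2.20 and 2.27. Plxnb2, a semaphorin receptor gene, was at 70.5, 87.9 and 39.3 CPM in wild type and 379.8 and 158 CPM in the samples labelled CD8KO (2.03 ± 0.42), and Emilin2, a matrix glycoprotein gene, at 78.2, 133 and 42.1 CPM in wild type and 558 and 216 CPM under the label (2.20 ± 0.52). For these 4 genes the labels did not overlap.

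**Figure D4:**
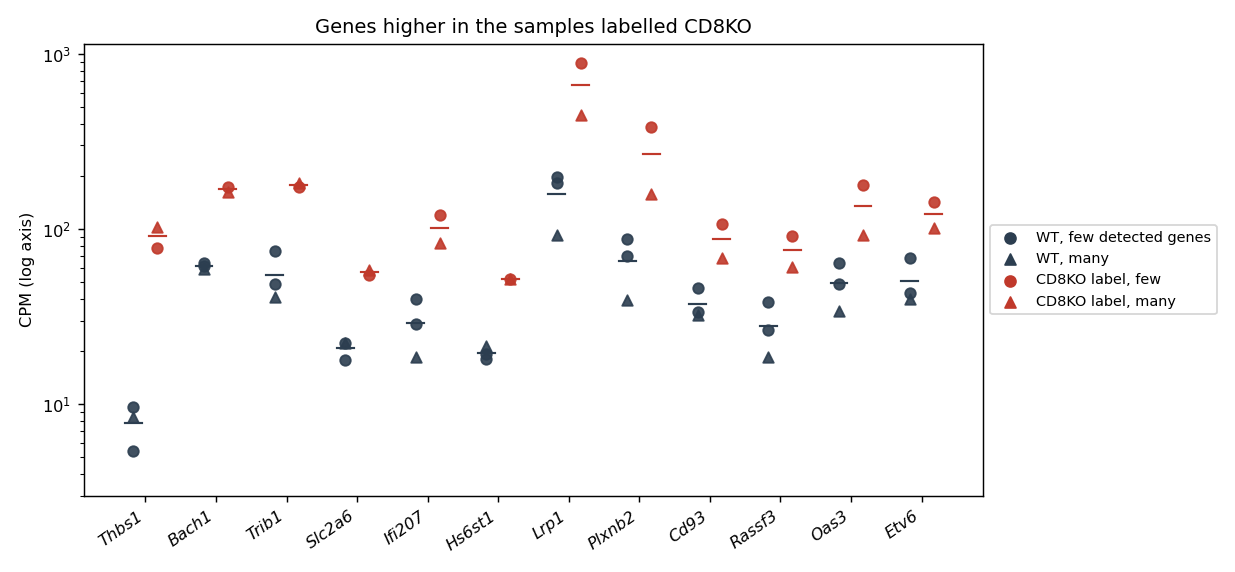
CPM on a log axis of the 12 genes with the smallest p among protein-coding genes higher under the label, chosen and drawn as for the lower genes. Thbs1 lay at 5.38 to 9.63 CPM in wild type and 78.1 to 103 CPM under the label, and Lrp1, Plxnb2 and Oas3 were highest in the few-gene sample labelled CD8KO.

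Some of the higher genes were about level between the 2 samples under the label. Bach1, a haem-regulated transcriptional repressor, was at 61.4, 63.9 and 59.2 CPM in wild type and 174 and 163 CPM in the samples labelled CD8KO (1.47 ± 0.20, edgeR adjusted p = 0.422). The wild-type values were nearly equal, as were the 2 values under the label. Trib1, a pseudokinase gene, was at 48.3, 74.5 and 40.8 CPM in wild type and 174 and 184 CPM under the label (1.74 ± 0.29), Slc2a6, a hexose transporter gene, at 22.4, 17.8 and 22.2 CPM in wild type and 54.9 and 58.1 CPM under the label (1.45 ± 0.26) and Hs6st1, a heparan sulphate sulphotransferase gene, at 19.4, 18.03 and 21.3 CPM in wild type and 51.8 and 52.1 CPM under the label (1.42 ± 0.25). The labels did not overlap for any of the 4, and the edgeR adjusted p ran from 0.422 to 0.950. Among targets and partners of BACH1 and genes of haem and iron, 16 of 25 were higher and 1 lower within both sets, with a median log2 change of 0.19.

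Interferon-stimulated genes were higher within both sets in 34 of 40 members and lower within both in 1 (all genes 30.4% and 28%). None passed, 13 did not overlap as higher and 0 as lower (all genes 9.84% and 8.47%), and the median log2 change was 0.80. Ifi207, a PYHIN-family gene, was at 28.5, 39.9 and 18.5 CPM in wild type and 119.7 and 83.6 CPM in the samples labelled CD8KO (1.83 ± 0.33, edgeR adjusted p = 0.950). Oas3, which encodes a sensor of double-stranded RNA, was at 64.3, 48.5 and 33.9 CPM in wild type and 177 and 92.4 CPM in the samples labelled CD8KO (1.47 ± 0.33, edgeR adjusted p = 1), and its relative Oasl1 at 15.6, 11.2 and 12.4 CPM in wild type and 28.3 and 45.2 CPM under the label (1.52 ± 0.34). Ifi213, a second PYHIN gene, was at 48.3, 38.2 and 45.4 CPM in wild type and 88.4 and 65.9 CPM under the label. None of these 4 overlapped between labels. Summed over the list the level was 2212, 2384 and 1355 CPM in wild type and 3780 and 2300 CPM in the samples labelled CD8KO, so CD8KO sample 2+3 lay below wild-type sample 3, although it exceeded its own set's wild-type sample 2+4. Neutrophil and monocyte markers were higher within both sets in the same samples, with sums of 2795, 4364 and 1052 CPM in wild type and 9265 and 2717 CPM in the samples labelled CD8KO, and their part in the result was not tested.

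The 150 bases before the start of Oas3 (chr5:120777660-120777809, minus strand) and Ifi207 (chr1:173741810-173741959, minus strand) are shown as the 2 leading members (RefSeq, GRCm38.p6). Capitals mark the core of the interferon-stimulated response element, which is GAAA, any 2 bases and GAAA again, searched on both strands.
Oas3: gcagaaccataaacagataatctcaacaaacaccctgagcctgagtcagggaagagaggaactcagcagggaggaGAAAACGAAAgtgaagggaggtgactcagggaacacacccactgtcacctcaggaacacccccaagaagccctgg
Ifi207: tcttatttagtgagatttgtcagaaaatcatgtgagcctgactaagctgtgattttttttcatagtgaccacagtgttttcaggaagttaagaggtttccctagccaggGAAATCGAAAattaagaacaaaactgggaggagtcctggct
The match lies 75 bases before the start in Oas3 and 41 bases before it in Ifi207. The core was present in 24 of 39 windows of interferon-stimulated genes (61.5%), in 1131 of 32851 windows of all genes (3.44%) and in 4 of 26 windows of cytotoxic genes (15.4%). As above, a match is a description of letters only.

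Markers of residence and of circulating NK cells were examined against the cell label. Itga1 (CD49a) was at 369, 223, 209 and 227 CPM in wild-type libraries 1 to 4 and 149, 136 and 137 CPM in CD8KO libraries 1 to 3, and Itga2 (CD49b) did not exceed 36.5 CPM in any library. Eomes was at 0.494, 4.75, 1.66 and 4.71 CPM in wild-type libraries 1 to 4 and 6.04, 10.3 and 8.81 CPM in CD8KO libraries 1 to 3, so the factor of circulating NK cells was low in all libraries and its samples did not overlap between labels (1.74 ± 1.07, edgeR adjusted p = 1). Zfp683, which encodes Hobit, a factor of tissue-resident lymphocytes, was at 324, 216 and 295 CPM in wild type and 191 and 211 CPM under the label, and Cxcr6 at 351, 233 and 203 CPM in wild type and 203 and 115 CPM under the label. Itga1 was lower under the label in every library (−0.88 ± 0.29, edgeR adjusted p = 1), whereas Cxcr6 overlapped. Of 30 LrNK markers 13 were lower and 8 higher within both sets, with a median log2 change of −0.12, a sign that turned to 0.01 without wild-type sample 2+4 and to 0.06 without CD8KO sample 1. Of 24 markers of circulating conventional NK cells 11 were higher and 6 lower within both sets (all genes 30.4% and 28%). Without overlap 9 were higher and 5 lower (all genes 9.84% and 8.47%). The median log2 change was 0.74, or 0.24 with the set term. Without CD8KO sample 2+3 that median was −0.21. Kit, a receptor of immature lymphoid and mast cells, was the LrNK marker with the smallest p, at 24.1, 18.7 and 20.8 CPM in wild type and 45.4 and 37.8 CPM under the label (0.98 ± 0.26, edgeR adjusted p = 1).

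Maturation genes pointed both ways. Of 18 genes of terminal NK maturation 9 were lower and 8 higher within both sets. The lower ones were led by Gzma and Gzmb, and the higher ones by Itgam, Ly6c2 and Zeb2. Itgam (CD11b) was at 25.1, 35.6 and 14.2 CPM in wild type and 83.96 and 51.4 CPM in the samples labelled CD8KO, Ly6c2 at 58.6, 121 and 43.8 CPM in wild type and 333 and 139 CPM under the label and Zeb2, a transcription factor of late NK maturation, at 50.3, 91.7 and 31.3 CPM in wild type and 179.9 and 115 CPM under the label. None overlapped. All 3 are also transcribed in monocytes, and Cd14, a monocyte receptor gene, lay beside them at 25.2, 54.1 and 23.6 CPM in wild type and 112 and 95.4 CPM under the label. Their share in the Itgam, Ly6c2 and Zeb2 counts was not tested. T-bet (Tbx21) was at 402, 400.1 and 734 CPM in wild type and 256 and 631 CPM under the label and differed more by detected-gene set than by label, Klrg1 stayed at or below 7.46 CPM, and S1pr5 overlapped (0.90). Tcf7, a factor of immature lymphocytes, was at 83.8, 68.1 and 86.1 CPM in wild type and 106 and 150.2 CPM under the label without overlap (0.72 ± 0.27, edgeR adjusted p = 1).

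CD27 and its pathway overlapped for the receptor itself. Cd27 was at 107, 102, 79.6 and 104 CPM in wild-type libraries 1 to 4 and 69.5, 98.6 and 99.3 CPM in CD8KO libraries 1 to 3, with overlap between labels (−0.17 ± 0.28, edgeR adjusted p = 1), and without CD8KO sample 1 its log2 change was 0.12. Cd70 had 0 counts in the 4 wild-type libraries and CD8KO library 1, and 14 and 4 counts in CD8KO libraries 2 and 3, too few for a test. Of 19 genes of CD27, CD70 and their proximal signalling 18 were tested, 7 were higher and 2 lower within both sets, and the median log2 change was 0.23. Nfkb1, which encodes the p105 and p50 NF-kB subunits, was at 303, 272 and 226 CPM in wild type and 404 and 358 CPM in the samples labelled CD8KO (0.53 ± 0.21, edgeR adjusted p = 1). Map3k14, which encodes NIK, the kinase of the alternative NF-kB route used by CD27, was at 84.2, 92.4 and 77.6 CPM in wild type and 112 and 105 CPM under the label (0.37 ± 0.20). Both were free of overlap. NF-kB targets and feedback genes were higher within both sets in 20 of 29 members and lower in 1, led by Trib1, Slpi, Cd14 and Tlr2, of which Cd14 and Tlr2 are myeloid receptor genes.

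Cytokine genes differed by gene. Csf1, a macrophage growth factor that NK cells secrete, was at 31.8, 40.2 and 37.2 CPM in wild type and 19.6 and 17.3 CPM in the samples labelled CD8KO (−0.97 ± 0.27, edgeR adjusted p = 1), and Ltb, which encodes lymphotoxin beta, at 555, 577 and 373 CPM in wild type and 310.2 and 333 CPM under the label (−0.61 ± 0.25). Both were lower without overlap. Ifng was at 159, 334 and 553 CPM in wild type and 130.1 and 312 CPM under the label and followed the detected-gene set, with within-set differences of −0.83 and −0.84. The chemokine gene Ccl5 was at 1780, 2223 and 2976 CPM in wild type and 946 and 1613 CPM in the samples labelled CD8KO, free of overlap (−0.85 ± 0.39). Osm and Il1b, cytokine genes of myeloid cells, were higher without overlap, Il1b only barely. Osm was at 16.2, 60.8 and 17.6 CPM in wild type and 84.9 and 90.4 CPM under the label. Il1b was at 34.98, 108.5 and 39.5 CPM in wild type and 109.4 and 162 CPM under the label. The edgeR adjusted p of these 6 genes was 1.

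Genes of IL-2 and IL-15 signalling, and of IL-12, IL-18 and interferon-gamma signalling, went both ways. Of 18 tested in the first list 9 were lower and 8 higher within both sets, and of 18 in the second 4 were lower and 10 higher. Socs2 and Cish, feedback inhibitors induced by STAT5, were lower by −0.76 ± 0.23 and −0.45 ± 0.20, and Bcl2, a survival gene kept on by IL-15, was at 323, 302 and 292 CPM in wild type and 205 and 227 CPM in the samples labelled CD8KO (−0.48 ± 0.21). Il18rap, a chain of the IL-18 receptor, was at 203, 145 and 141 CPM in wild type and 109 and 109 CPM under the label, and Stat4, the factor activated by IL-12, at 90.2, 92.4 and 92.01 CPM in wild type and 64.3 and 64.1 CPM under the label. Stat5a, the factor through which IL-2 and IL-15 act, was higher instead, at 42.97, 53.02 and 47.3 CPM in wild type and 67.03 and 60.9 CPM under the label (0.43 ± 0.22). None of these 6 genes overlapped and none passed (edgeR adjusted p = 1 for each). Over the list of IL-2 and IL-15 signalling the median log2 change was −0.10 (0.01 without wild-type sample 2+4 and 0.04 without CD8KO sample 1), and over IL-12, IL-18 and interferon-gamma signalling it was 0.15.

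Oxidative phosphorylation and ribosomal protein genes lay slightly but widely below wild type. Of 41 oxidative phosphorylation genes 34 were lower and 2 higher within both sets, with a median log2 change of −0.38, and Cox6b1, a subunit of cytochrome c oxidase, was at 111, 149 and 124 CPM in wild type and 75.1 and 87.4 CPM in the samples labelled CD8KO (−0.64 ± 0.25, edgeR adjusted p = 1). Of 70 cytosolic ribosomal protein genes 63 were lower and 2 higher within both sets, with a median log2 change of −0.25. In 11 and 15 of these genes the samples did not overlap as lower, and in 0 as higher (all genes 8.47% and 9.84%). Because CPM are shares of 1 total, a lower share of these abundant genes and a higher share of others are not separate measurements. The medians stayed between −0.37 and −0.42, and between −0.24 and −0.29, under the 3 other scalings.

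Glycolysis and hypoxia genes were led by a few enzymes. Hk2, which encodes hexokinase 2, was at 28.98, 30.1 and 10.3 CPM in wild type and 82.01 and 81.2 CPM in the samples labelled CD8KO (1.86 ± 0.42, edgeR adjusted p = 1), and Pfkfb3, an activator of glycolysis, at 47.01, 33.3 and 32.3 CPM in wild type and 65.7 and 75.7 CPM under the label (0.94 ± 0.25). Hif1a, which encodes the oxygen-regulated factor HIF-1 alpha, was at 67.2, 48.5 and 46.3 CPM in wild type and 107 and 68.4 CPM under the label (0.71 ± 0.26). None of the 3 overlapped between the 5 samples. By single library Hif1a did overlap, with CD8KO library 3 (65.8 CPM) below wild-type library 1 (67.2 CPM). Over 23 glycolysis genes 12 were higher and 5 lower within both sets (median log2 change 0.22), and over 27 tested hypoxia genes 14 and 8 (median 0.14).

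Integrins differed by chain: Itga5 and Itga4, fibronectin receptor chains, were higher by 0.99 ± 0.22 and 0.86 ± 0.25, while Itga1 and Itgax were lower by −0.88 and −0.66, all 4 without overlap.

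**Figure D5:**
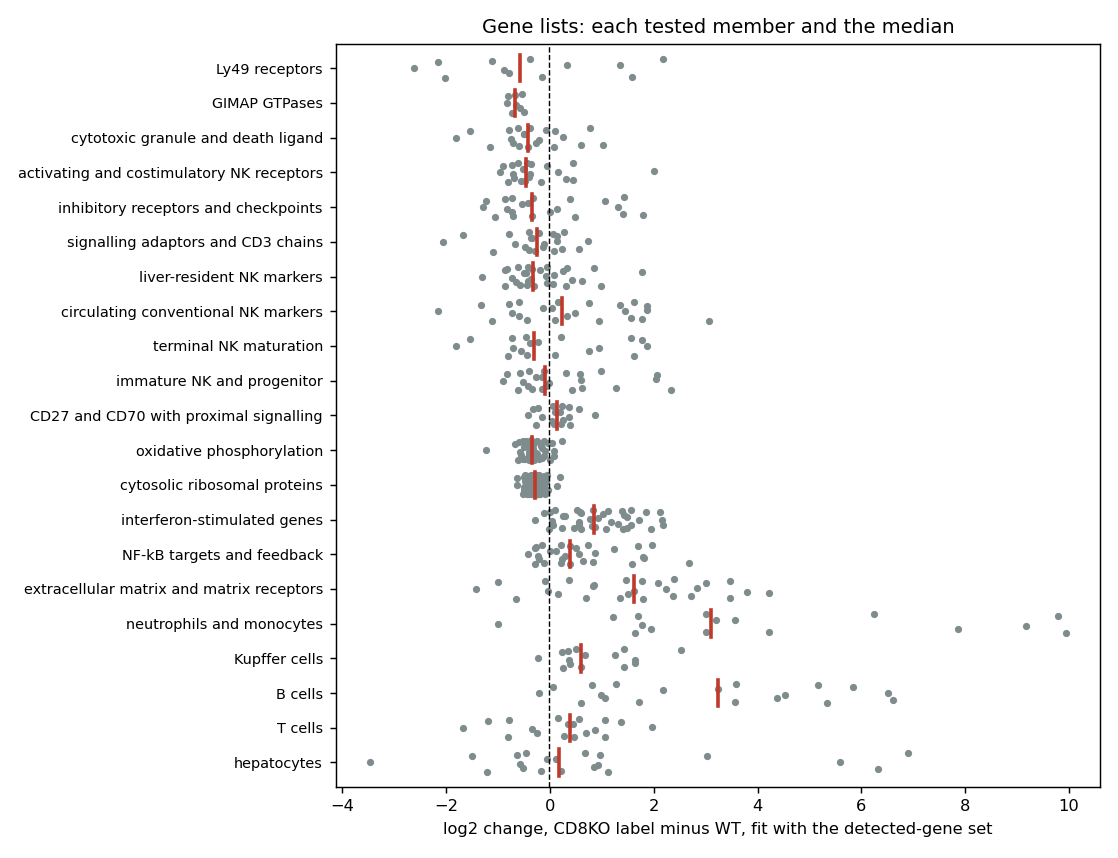
Log2 change by label of each tested member (grey points) of 21 gene lists, from the edgeR fit with the detected-gene set as a term. The list median is a red bar, and the median of all tested genes is dashed. GIMAP, oxidative phosphorylation and ribosomal protein members lie close together below 0, whereas marker lists of B cells, neutrophils and monocytes spread to high values from genes with few or 0 counts in wild type.

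Markers of other liver cells moved with the label and with the detected-gene set. The neutrophil and monocyte sums given beside the interferon-stimulated genes were higher under the label within each set but overlapped over all samples. Lyz2, which encodes lysozyme in macrophages and neutrophils, was the most abundant of those named, at 1844, 3532 and 520.3 CPM in wild type and 7411 and 1962 CPM under the label. Of the 20 markers 16 had enough counts to be tested. Within both sets 15 were higher and 1 lower (all genes 30.4% and 28%). Without overlap 11 were higher and 1 lower (all genes 9.84% and 8.47%), and the median log2 change was 2.38. Several markers passed the filter only through the samples labelled CD8KO, so these counts and this median are partly fixed by the filter. The neutrophil gene S100a8, picked as a defining marker after its values were seen, lay between 0 and 6.08 CPM in the 5 samples, and F13a1, a monocyte gene, was at 25.8, 21.004 and 5.61 CPM in wild type and 272 and 26.8 CPM under the label. F13a1 did not overlap, though CD8KO sample 2+3 was barely above wild-type sample 1.

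The macrophage genes named here were likewise lowest in wild-type sample 2+4 and highest in CD8KO sample 1, Clec4f only barely. Csf1r, the receptor for CSF1 that defines macrophages, was at 371, 558 and 113 CPM in wild type and 1118 and 491 CPM in the samples labelled CD8KO, lowest in wild-type sample 2+4 and highest in CD8KO sample 1. The Kupffer markers summed to 2663, 4523 and 785 CPM in wild type and 9232 and 2808 CPM in the samples labelled CD8KO. Lyz2, at 1844, 3532 and 520.3 CPM in wild type and 7411 and 1962 CPM under the label, belongs to this list and to the neutrophil and monocyte list. It gives a large part of both sums, so they are not separate measurements. Clec4f, which defines Kupffer cells and was likewise picked after its values were seen, was at 20.8, 15.2 and 2.87 CPM in wild type and 20.97 and 3.54 CPM under the label. Within each set Clec4f was at a like level under both labels, whereas 12 of the 15 Kupffer markers tested were higher and 0 lower within both sets. The median of the Kupffer list was 0.49 and turned to −0.27 without CD8KO sample 1. Cd68, a lysosomal gene of macrophages, was at 70.2, 123 and 31.8 CPM in wild type and 195 and 125 CPM under the label. It did not overlap, though CD8KO sample 2+3 was barely above wild-type sample 3. Whether these cells contributed to the higher matrix, interferon and integrin genes was not tested.

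B-cell markers summed to 4738, 7975 and 1777 CPM in wild type and 7671 and 6029 CPM in the samples labelled CD8KO. Cd79a, a signalling chain gene of the B-cell receptor, was at 0.517, 3.48 and 1.98 CPM in wild type and 0.668 and 40.2 CPM under the label, so CD8KO sample 2+3 held Cd79a RNA that CD8KO sample 1 nearly lacked. Plasma-cell markers summed to 238, 434 and 210.1 CPM in wild type and 607 and 542 CPM in the samples labelled CD8KO. T-cell markers summed to 1522, 1827 and 1840 CPM in wild type and 931 and 1203 CPM in the samples labelled CD8KO, a lower sum, with Cd3g and Trbc2 (311, 312 and 397 CPM in wild type and 188 and 223 CPM under the label) among its abundant lower members. By gene the list went the other way more often, with 10 of 18 tested markers higher and 4 lower within both sets. Cd6, a T-cell surface receptor gene, was higher without overlap, at 6.09, 3.84 and 4.42 CPM in wild type and 20.1 and 16.6 CPM under the label. Globin transcripts were highest in CD8KO sample 2+3, with Hba-a1 at 97.9, 463 and 64.4 CPM in wild type and 139 and 1455 CPM under the label. Hepatocyte markers summed to 960.2, 1646 and 568 CPM in wild type and 2508 and 1220 CPM in the samples labelled CD8KO, of which Apoe, which macrophages also make, was at 862, 1544 and 521 CPM in wild type and 2232 and 1121 CPM under the label. The part of these cells in any result was not tested.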

How the data were processed

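Per the labels, NK cells were sorted, RNA was taken up in Trizol and libraries were made with an Illumina TruSeq kit. The deposited files are raw gene counts, 1 file per library, which the authors made from reads aligned with HISAT2 2.1.0 to GRCm38, per the submitters' processing notes. The counting tool, annotation release and strand use were not given in the sources used here, so reads of genes that overlap or lie antisense may be shared. Of 54532 gene identifiers 54495 matched GENCODE M21 and 37 did not.

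The count data of 5 LrNK samples were scaled by TMM and tested with the quasi-likelihood test of edgeR 4.0.16 (R 4.3.3), without a replicate term. The filterByExpr limits were 10 counts in enough samples and 15 in all, which left 16504 genes, and a call needed a Benjamini-Hochberg adjusted p below 0.05. The fit had 3 residual degrees of freedom, and 2 with a term for the detected-gene set (few: under 16000 genes with a count). Limma 3.58.1 (voom with sample weights) and DESeq2 1.42.0 were run on the same samples. The scripts were tested on simulated data. Errors after ± are standard errors of log2 changes. CPM divide by the sample's total, and within-set differences are of TMM-scaled log2 CPM with a prior count of 2. Both labels share only 2 replicate numbers among the samples (correlations of deviations 0.306 and 0.521). With 2 CD8KO samples their deviations are mirror images, so the 2 values are not separate measurements. Each such pair also lies within 1 detected-gene set. No label ties the numbers to an animal or a day, so they were not taken to pair samples.

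Genes were named by rule. The rule took the 12 per direction with the smallest p among protein-coding genes whose log2 CPM averaged 5 or more, with no overlap and the same direction within both sets. It also took up to 4 members per list with the smallest p whose log2 CPM averaged 2 or more, and a set of fixed genes. S100a8 and Clec4f, named as defining markers, fall outside it and were chosen after their values were seen. The comparison, the 44 lists (from general knowledge), the rule and the set limit were chosen with earlier results of these data known. Lists are described by counts and medians without a test. Promoter windows were matched to RefSeq by symbol. Alternatives changed the scaling, the filter, the summing of libraries, the tool, the samples in the fit and the replicate term.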

Additional observations from a re-analysis of the deposited data

How the results depend on the processing

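The counts of genes past the threshold, 0 in each of the 3 fits, depended on the filter and on how the libraries were used. Without a filter beyond 1 count the edgeR fit of LrNK alone called 259 genes, the fit with the set term 8 and voom 1. With the 7 libraries not summed, which takes near-copies as samples, the 3 fits called 22, 767 and 7492. The label in LrNK gave 62 calls by DESeq2, and 138 in the 4-group fit, which adds the conventional NK libraries. The replicate block gave 180 for LrNK alone, although the shared numbers are not known to pair samples. Leaving out each sample in turn gave 0 calls each time for LrNK alone, 0 to 225 with the set term and 0 to 1 by voom, where the 1 came without wild-type sample 3. The 3 other scalings, a minimum of 50 counts and 1 library of each pair gave 0 calls in all 3 fits, as did a robust prior for LrNK alone and, chosen after seeing the data, voom with the set term. The share of genes with the same direction within both sets was 58.4% at prior counts of 0.5 and 5. Of 3040 values over 169 named genes 2809 kept their direction and side of the threshold, 204 passed it and 27 turned direction, in 13 genes. Over the left-out samples the log2 change ran from −2.24 to 0.98 for Klrg1, −0.25 to 0.060 for Il7r, −1.08 to 0.37 for Tbx21, −0.53 to 0.12 for Cd27, −0.57 to 1.91 for Stab2, −0.30 to 3.55 for Ptprb, −1.64 to 4.41 for Cd79a, −0.54 to 2.98 for Alas2, −0.62 to 3.37 for Hba-a1, −0.68 to 2.75 for Hba-a2, −0.87 to 2.84 for Hbb-bs, −0.010 to 0.85 for Tk1 and −0.46 to 2.24 for Trf. Klrg1 was also at −0.73 with the replicate block. Within the few-gene set the values were −1.33 for Klrg1, 0.19 for Il7r, −0.99 for Cd79a and for Alas2, −0.62 for Hba-a1, −0.88 for Hba-a2 and −1.04 for Hbb-bs, and within the many-gene set −0.41 for Ptprb. The cause was not tested. With 3 or 2 residual degrees of freedom and a biological coefficient of variation of 98.2%, a difference that did not pass is not shown to be absent.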
